A study of Drosophila melanogaster with 2 samples.

Results

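Distal intronic peaks of CG1603 binding are summits in an intron of a protein-coding gene, more than 2000 bp from every annotated transcription start site (TSS) and in no exon of any gene. Each summit of the authors' reproducible peak list was placed on the Ensembl genes of the dm6 build, without pseudogenes and transposable elements, and 1742 of 8963 summits (19.4%, exact 95% interval 18.6 to 20.3) met this definition. The RefSeq annotation placed every summit in the same class. The comparison classes were 4426 promoter peaks, with a summit within 500 bp of a TSS, and 878 distal intergenic peaks, more than 2000 bp from every TSS and in no gene.

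The samples were whole *Drosophila melanogaster* embryos, pooled from males and females and aged 0 to 16 h, from a transgenic line that stably expresses CG1603 fused to GFP at its C terminus. Chromatin bound by the tagged protein was recovered by chromatin immunoprecipitation and sequenced in 1 group of 2 biological replicates, numbered 2 and 3. The description states an antibody to GFP, whereas another field of the labels gives CG1603 as the antibody. No peak list of a control or of another genotype was analysed here, the depth is unknown from peak lists, and whole embryos mix all cell types of these stages. Peak signal is the authors' own value on an unstated scale and is used only to rank and describe peaks. Rank 1 is the strongest of the 8963.

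CG1603 has C2H2 zinc fingers and is best known for controlling nuclear genes whose products work in mitochondria. Many housekeeping promoters of the fly carry short elements such as the DNA replication-related element (DRE), bound by Dref and overlapping the core recognised by the insulator protein BEAF-32, and Motif 1, bound by M1BP. Long introns of developmental genes hold enhancers, which are read by tissue-specific factors, and sites of the insulator protein Su(Hw).

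The 11 summit sequences below show what the peaks look like, each the summit with 50 bases on either side, on the plus strand of dm6 in the RefSeq release 6 assembly. Capitals mark matches, on either strand, to any of 18 motifs searched; the motifs overlap, since a DRE contains the BEAF-32 core CGATA and, when flanked by C and G, also matches the Mef2 pattern. The first 4 are the strongest members outside a chromosome arm that was left out of the sequence display, and 3 of these 4 hold none of the motifs. The next 3 are the strongest with the DRE TATCGATA, and the 2 after that the strongest with Motif 1, GGTCACACT. The last pair are the strongest with the Su(Hw) core GCATACTT and were chosen after the motif values were seen. They lie at chrX:3742173-3742273 (Tlk), chrX:2297668-2297768 (Raf), chr3L:3060753-3060853 (CG32486), chr3L:14304018-14304118 (fz), chr3L:24231480-24231580 (Snap25), chr3L:12794659-12794759 (CG42709), chr3L:23580057-23580157 (AGO3), chr3R:10564401-10564501 (hth), chr2L:1065150-1065250 (S), chr3L:4230467-4230567 (ImpL2) and chr3R:31247743-31247843 (qless).
Tlk: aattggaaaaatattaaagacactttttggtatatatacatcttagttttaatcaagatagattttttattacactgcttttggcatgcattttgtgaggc
Raf: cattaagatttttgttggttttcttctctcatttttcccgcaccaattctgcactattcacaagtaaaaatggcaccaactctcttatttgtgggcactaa
CG32486: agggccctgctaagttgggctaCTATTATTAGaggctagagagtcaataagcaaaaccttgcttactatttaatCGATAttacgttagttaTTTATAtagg
fz: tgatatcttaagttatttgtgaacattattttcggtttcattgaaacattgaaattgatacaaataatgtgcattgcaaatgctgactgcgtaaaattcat
Snap25: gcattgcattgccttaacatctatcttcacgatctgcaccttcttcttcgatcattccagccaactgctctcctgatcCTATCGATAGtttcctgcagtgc
CG42709: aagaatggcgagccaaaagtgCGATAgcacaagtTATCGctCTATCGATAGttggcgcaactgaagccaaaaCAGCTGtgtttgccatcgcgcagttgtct
AGO3: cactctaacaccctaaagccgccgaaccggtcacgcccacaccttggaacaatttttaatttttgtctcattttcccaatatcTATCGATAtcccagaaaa
hth: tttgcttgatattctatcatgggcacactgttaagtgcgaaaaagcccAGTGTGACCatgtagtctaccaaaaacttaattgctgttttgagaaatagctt
S: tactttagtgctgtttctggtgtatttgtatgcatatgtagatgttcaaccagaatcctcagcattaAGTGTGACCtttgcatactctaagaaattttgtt
ImpL2: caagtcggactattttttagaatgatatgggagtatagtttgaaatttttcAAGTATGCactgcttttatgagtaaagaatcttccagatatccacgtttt
qless: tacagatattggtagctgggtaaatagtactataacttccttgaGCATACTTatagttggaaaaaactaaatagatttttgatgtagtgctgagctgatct

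The 15 strongest distal intronic peaks lay in 13 genes by the shortest intron at each summit, among them several genes of signalling and transcription control. The peak in aos also lay in an intron of a further gene. The strongest was in intron 1 of Tlk, which encodes a kinase linked to chromatin assembly. Its signal was 3409 in the pooled list (rank 140), 1838 in replicate 2 (rank 138) and 1596 in replicate 3 (rank 140). Next came an intronic peak of Raf, the kinase that relays Ras signals, with a signal of 3364 in the pooled list, 1710 in replicate 2 and 1672 in replicate 3. Raf held another of the 15, at rank 169. The peak in intron 1 of CG32486 had a signal of 1740 in replicate 2 and 1550 in replicate 3. That in intron 1 of fz, which encodes a Frizzled receptor for Wnt ligands, lay 22183 bp from the nearest TSS and had a signal of 1588 in replicate 2 and 1464 in replicate 3. The peaks in Tlk, CG32486 and fz and the stronger one in Raf lay within rank 131 to 170 of each replicate's own list.

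The other members of this group were in sbb, a gene of a transcriptional corepressor, at rank 171; in Hr4, a nuclear receptor gene of the ecdysone response, at ranks 181 and 199; and in aos, whose secreted product inhibits the EGF receptor, at rank 185. CG32264 (rank 188), kirre (rank 219), CG6959 (rank 224), shep (rank 227), N (rank 236) and trx (rank 254) completed the group. The kirre product is a cell adhesion protein of myoblast fusion, shep encodes an RNA-binding protein, N the Notch receptor and trx the Trithorax histone methyltransferase. Over the 15 peaks, signal ran from 1180 to 1838 in replicate 2 and from 1029 to 1672 in replicate 3. Of the 15, 11 lay in an intron that is the first of at least 1 transcript.

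Distal intronic peaks were weaker than promoter peaks. Their signal had a median of 264 (lowest 140, quartiles 183 and 440, highest 3409), against 375 for promoter peaks and 261 for distal intergenic peaks. In the separate lists the members' median was 144 in replicate 2 and 126 in replicate 3, and that of promoter peaks 192 and 191. No member was among the 100 strongest peaks and 121 (12.1%) were among the 1000 strongest. Their share rose from 11.5% in the strongest 10% of the list to 26.8% in the weakest 10%, while the promoter share went from 64.2% to 33.4%.

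**Figure D1:**
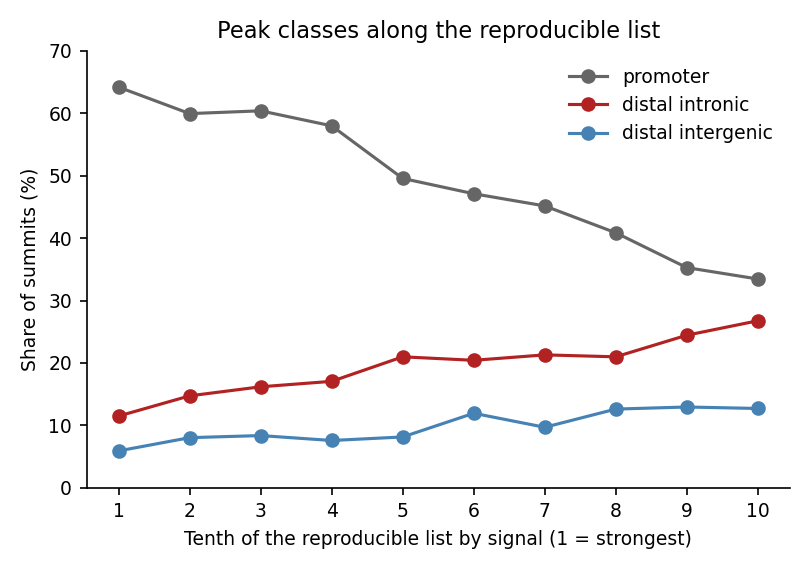
Share of summits (vertical axis, percent) in steps of 10% of the reproducible list by signal (horizontal axis, 1 is the strongest step) for promoter, distal intronic and distal intergenic peaks. The distal intronic share went from 11.5% to 26.8% and the promoter share from 64.2% to 33.4%.

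The strongest 25% of the list, ranks 1 to 2240, held 319 of the 1742 members (18.3%) and 30.7% of promoter peaks (odds ratio 0.506, exact 95% interval 0.440 to 0.581, adjusted p = 9.93e-23 by a two-sided Fisher's exact test, as in all 46 comparisons between peak classes). With only the strongest peak of each gene or gap the odds ratio was 1.01 (adjusted exact p = 1), so the direction was lost and the cause was not tested. Distal intergenic peaks were among these 2240 in 19.0% of cases (odds ratio 0.954, exact 95% interval 0.772 to 1.18, adjusted p = 0.825). Peaks are not independent replicates, and these p-values describe the peaks of 2 libraries.

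Most distal intronic peaks of the full pooled list stayed below the reproducible threshold. The pooled list of 30000 peaks held 8261 distal intronic summits (27.5%), and 1742 of these (21.1%) were in the reproducible list, against 29.9% of all pooled peaks, 52.5% of promoter peaks and 18.0% of distal intergenic peaks. The reproducible members are also the distal intronic peaks among the 8963 strongest pooled peaks, so this share is one of signal rank. Taken alone, the 8963 strongest peaks of replicate 2 held 1816 distal intronic summits (20.3%) and those of replicate 3 held 1598 (17.8%).

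Nearly all members had a peak in each replicate. The reproducible list was made from these same replicates, so this overlap is no independent check. The tests below compare classes within that selected list only. Of the 1742, 1713 (98.3%) overlapped a peak of both full replicate lists by at least 1 bp, against 97.6% of all reproducible peaks, 97.0% of promoter peaks (odds ratio 1.84, exact 95% interval 1.22 to 2.87, adjusted p = 0.00991 by Fisher's exact test) and 98.2% of distal intergenic peaks (odds ratio 1.10, exact 95% interval 0.553 to 2.10, adjusted p = 0.865). The difference from promoter peaks was no longer called with 1 peak per gene (odds ratio 2.17, adjusted exact p = 0.0803) or beyond 5000 bp from every TSS (odds ratio 1.54, adjusted exact p = 0.227). In the stronger 50% of the list the odds ratio was 8.29 (adjusted exact p = 0.000685). A stricter count went the other way as a description: 78.9% of members, 85.8% of promoter peaks and 79.3% of distal intergenic peaks overlapped one of the 8963 strongest peaks of both replicates. Replicate 2 held 93.3% of members among its 8963 strongest peaks and replicate 3 held 84.4%.

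Relative to all reproducible peaks, distal intronic peaks leaned towards replicate 2. The log2 ratio of replicate 3 to replicate 2 signal, with the median of all peaks removed, had a median of -0.10 over the 1713 members (quartiles -0.32 and 0.13), 0.09 over promoter peaks and -0.13 over distal intergenic peaks. With 1 group of 2 replicates, a cause of this tilt was not tested.

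**Figure D2:**
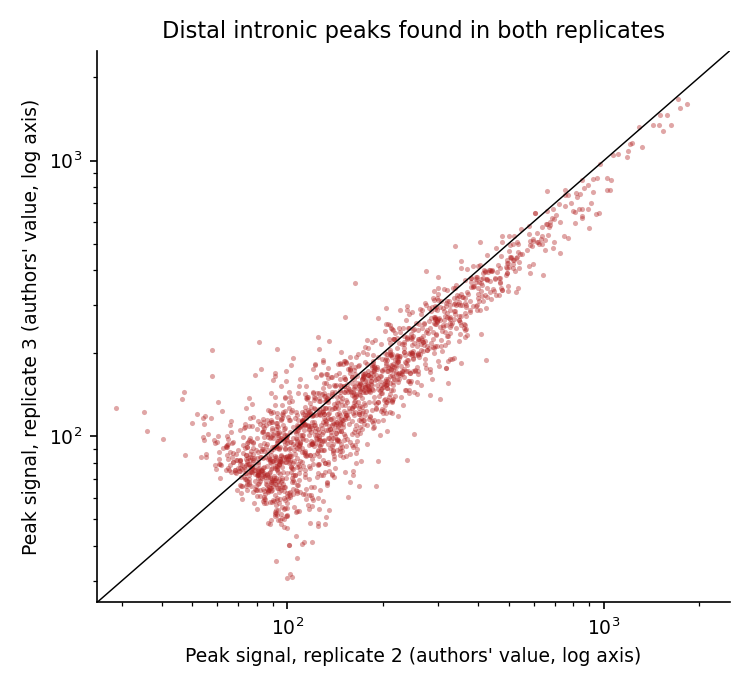
Peak signal in replicate 2 (horizontal, log axis) against replicate 3 (vertical, log axis) for the 1713 distal intronic peaks found in both replicates, each point 1 peak and the line equal signal. The strongest points reach 1838 in replicate 2 and 1672 in replicate 3, and points scatter more widely at low signal.

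The 29 members that lacked a peak in 1 replicate were of middle or low signal, the first at rank 4240. Of these, 15 had no replicate 2 peak and 14 no replicate 3 peak. The strongest was in intron 1 of sli, which encodes the axon repellent Slit, with a replicate 3 signal of 132 and no replicate 2 peak. In dysf, the gene of a bHLH-PAS factor of the tracheal system, the signal was 174 in replicate 2 and no peak was listed in replicate 3. A peak in stx had a replicate 3 signal of 127 and no replicate 2 peak.

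The genome offers 41.3 Mb that meet the definition, 30.2% of the chromosome arms. Members occurred there at 42.1 per Mb, against 246 per Mb for promoter peaks within 500 bp of a TSS and 27.8 per Mb for distal intergenic peaks. They covered 403 kb in all, with a median width of 219 bp (82 to 467). By arm the density was 55.4 per Mb on X (412 peaks), 47.7 on 2L (306), 40.9 on 3L (327), 40.2 on 2R (286), 36.7 on 3R (407) and 9.47 on chromosome 4 (4), with 0 peaks on Y.

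First introns held more of the members than their length would give. Introns that are the first of at least 1 transcript made up 36.6% of the qualifying sequence and held 982 members (56.4%), or 65.0 per Mb against 29.0 per Mb in other introns. First introns lie nearer to the gene start, and the part of this in their density was not tested. Densities were also taken by distance to the nearest TSS of any gene. First introns held 74.9 per Mb against 39.7 in other introns at 2 to 5 kb. The values were 65.9 against 36.2 at 5 to 10 kb, and 48.0 against 20.7 beyond 10 kb. The median distance to the nearest TSS was 5886 bp (quartiles 3418 and 10564.5, highest 332482), and 478 members (27.4%) lay beyond 10 kb, where 42.9% of the qualifying sequence lies. The median intron that held a member was 15012 bp long (109 to 257022).

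Summits just inside the distance limit were in CG9171 and pot, both at 2005 bp (ranks 3128 and 7821), and in Ptp61F at 2009 bp (rank 1278). The closest intronic summits just outside it were in spg and CG42709 at 2000 bp (ranks 8631 and 8862) and in Stat92E at 1998 bp (rank 7849).

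The members lay in 724 genes, 17.1% of the 4229 protein-coding genes with qualifying sequence. Of these hosts, 339 held 1 member, 289 held 2 to 4, and 96 held 5 or more, which together accounted for 666 members (38.2%). The share of genes that were hosts rose with the length of qualifying sequence, from 3.91% of genes with under 5 kb to 27.9% at 5 to 10 kb, 41.0% at 10 to 20 kb, 52.4% at 20 to 50 kb and 67.1% above 50 kb. The density of members did not rise in step: it was 69.6 per Mb at 5 to 10 kb and 28.4 per Mb above 50 kb.

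The kirre gene held most members, 30 over 288 kb of qualifying sequence, all 30 with a peak in both replicates. It had no reproducible peak within 500 bp of its own TSSs. The Hox cofactor gene hth held 17, Ptp61F, which encodes a protein tyrosine phosphatase, 12, and the zinc finger gene jing 12. The sbb and CG1677 genes held 11 each, as did Ten-a, which encodes a teneurin adhesion protein. The Hr4, sick and Tet genes held 10 each, Tet encoding the fly member of the TET dioxygenase family. In these 10 genes the members had a peak in both replicates in all cases but 1, in CG1677. Strength differed between them: the median rank of members was 1568.5 in Hr4 and 2779 in sbb, but 7019 in CG1677 and 6511 in Ten-a.

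**Figure D3:**
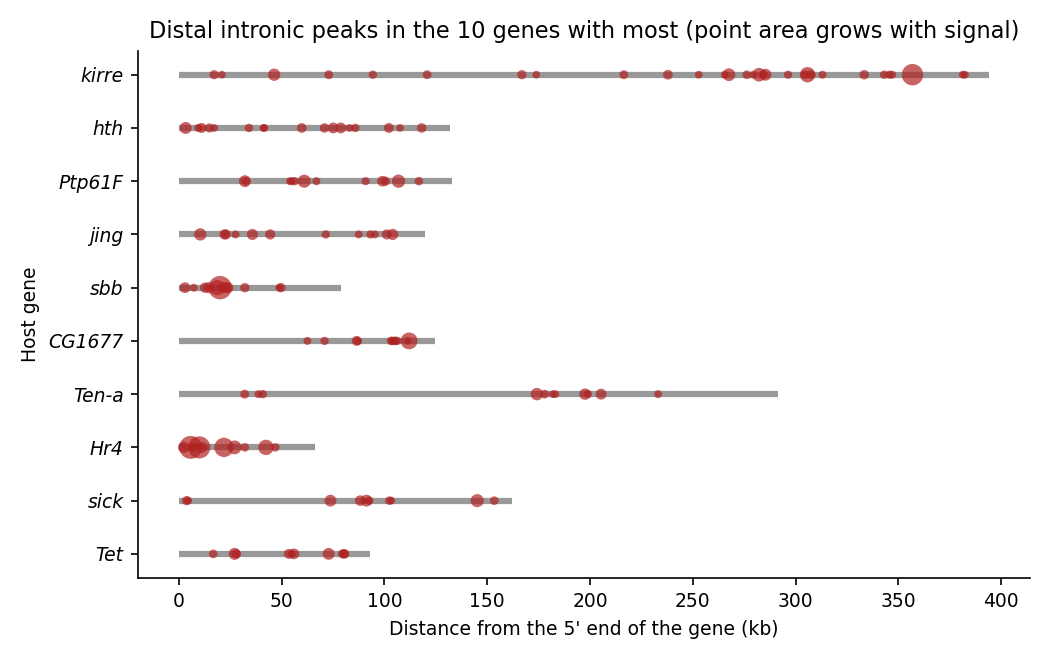
Position of distal intronic peaks (points, with area growing with pooled signal) along the 10 genes that held most, as distance from the 5' end of the gene in kb (horizontal axis), each grey bar being the gene. The 30 peaks of kirre spread along its length, and the strongest points are in sbb, Hr4 and kirre.

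Members often lay close together. The nearest other member was at a median of 4212 bp, and 310 members (17.8%) had one within 1 kb and 943 (54.1%) within 5 kb. Runs of 5 or more members with gaps of at most 5 kb numbered 26. The run with most members was in Raf, with 8 members whose summits span 8810 bp, all 8 with a peak in both replicates. Strong and weak summits were interleaved there: from the strong peak at rank 143 the neighbours along the gene had ranks 409, 169, 5717, 926, 524, 6536 and 1856. Runs of 6 were in sbb (11173 bp), CG43658 (9301 bp), kibra (7754 bp) and mam (6228 bp), and a run of 5 over 8735 bp was in Hr4. CG43658, kibra, a Hippo pathway gene, and mam, whose product is the Mastermind coactivator of Notch, were named after their values were seen.

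Host genes were often bound at their promoter as well. A reproducible summit lay within 500 bp of a TSS in 458 of 724 hosts (63.3%), in 40.6% of genes that had qualifying sequence and no member, and in 35.2% of all protein-coding genes. The gap was present in each length class: 69.1% of hosts against 43.0% of other genes under 5 kb, 64.5% against 40.2% at 5 to 10 kb, 61.7% against 31.8% at 10 to 20 kb, 58.8% against 24.0% at 20 to 50 kb, and 67.0% against 23.6% above 50 kb. A summit at any TSS of a gene counted, and the length classes do not match genes by their number of TSSs. The difference was not tested.

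Hosts were also counted in hand-made gene lists, each a sample of its group, so that a count holds for the listed genes only. Genes listed for signal transduction were hosts in 19 of 29 cases with qualifying sequence (65.5%), against 17.1% of all genes and 41.0% of genes with 10 to 20 kb, the class of the list's median gene. They held 115 members per Mb against 42.1 over all genes and 55.1 in that class. After fz and N, the strongest members were in pnt, an ETS factor gene of the Ras pathway (rank 364, replicate 2 rank 355, replicate 3 rank 375), and in vn, which encodes a ligand of the EGF receptor (rank 565, replicate 2 rank 563, replicate 3 rank 591). A promoter peak was also listed in 11 of the 19 hosts, but not in fz or vn.

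The listed nuclear receptors and genes of the ecdysone response were hosts in 10 of 19 cases (52.6%), with 83.6 members per Mb. Their median gene had 18.5 kb, in the length class with 41.0% hosts. Hr4 led with 10 members. Hr3 held 4, the strongest at rank 306 (replicate 2 rank 294, replicate 3 rank 326). Eip75B, another receptor gene of the ecdysone cascade, held 8, the strongest at rank 379 (359 and 427). E23, which encodes an ABC transporter induced by ecdysone, held 3, the strongest at rank 643 (542 and 837).

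The listed Hox genes and their regulators were hosts in 6 of 10 cases, with 96.2 members per Mb, and hth held 17 of their 34 members. Their median gene had 15.9 kb, again in the class with 41.0% hosts. Antp held 8 members (strongest rank 1859), lab 2 (rank 2182) and Abd-B 2 (rank 2934), each encoding a Hox protein. Among these 6 hosts only hth had a promoter peak. Of the listed embryonic patterning genes, 3 of 5 were hosts, their median gene having 4.74 kb, a class with 3.91% hosts. These were cad (1 member, rank 1622), wg, the Wnt ligand gene (1 member, rank 4168), and inv, a homeobox gene (3 members, strongest rank 5660). Of these hosts wg had 4.74 kb, but cad had 8.85 kb (a class with 27.9% hosts) and inv 28.8 kb (a class with 52.4%). In wg the replicates differed, the peak having rank 3346 in replicate 2 but 5820 in replicate 3.

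The listed axon guidance and adhesion genes were hosts in 20 of 32 cases (62.5%), at 46.6 members per Mb, close to the density over all genes. Their median gene had 31.8 kb of qualifying sequence, and genes of 20 to 50 kb were hosts in 52.4% of cases. The strongest members were in Fas3, which encodes the adhesion protein Fasciclin 3 (rank 412), fra, the netrin receptor gene (rank 587), caps, which encodes a leucine-rich repeat protein (rank 791) and Sema1a, a semaphorin gene (rank 907, 9 members). The listed RNA-binding and splicing regulators were hosts in 13 of 18 cases (72.2%), at 29.2 per Mb. Their median gene had 62.9 kb, and genes above 50 kb were hosts in 67.1% of cases, at 28.4 per Mb, so both values are near those of the length class. After shep came Rbfox1 (rank 776), how (rank 1151) and bru2 (rank 1419), and 12 of these 13 hosts had a promoter peak.

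The listed muscle and mesoderm genes were hosts in 6 of 15 cases, at 58.7 per Mb. Their median gene had 10.7 kb, and the 41.0% hosts and 55.1 per Mb of that length class are close to these values. They included how, Mef2, the gene of a muscle transcription factor (4 members, strongest rank 2291), twi, the mesoderm determinant (4 members, rank 2478), and mbc, a gene of myoblast fusion (1 member, rank 3575). Those listed as chromatin and insulator genes were hosts in 5 of 16 cases, at 57.5 per Mb, their median gene having 2.78 kb (a class with 3.91% hosts), and all 5 had a promoter peak. Besides trx (4 members) these included the Polycomb group genes Psc (rank 567) and ph-p (rank 1260) and the remodeller gene osa (rank 5865). Of these named hosts ph-p had 3.08 kb. The others were in longer classes: trx (7.98 kb) and Psc (7.28 kb) in that with 27.9% hosts, osa (12.6 kb) in that with 41.0%.

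Other lists held few members. The 25 listed ion channel and synaptic genes were hosts in 3 cases (12.0%), at 6.13 per Mb, while their median gene had 19.1 kb, a length class with 41.0% hosts. These were Shal, a potassium channel gene (rank 2421), Syn, the synapsin gene (rank 4280), and Ca-alpha1T, a calcium channel gene (rank 5965), and none of the 3 had a promoter peak. Genes of this kind outside the list were hosts too and could be stronger, such as the acetylcholine receptor gene nAChRalpha4 (rank 329), Cadps (rank 630) and Snap25 (rank 1081). The listed neural transcription factors were hosts in 3 of 16 cases, at 14.8 per Mb, with a median gene of 18.1 kb: Lim1 (rank 785), lz (rank 2615) and ey, a Pax6 gene (rank 5161). The listed cytoskeletal genes were hosts in 2 of 16 cases, at 11.9 per Mb, with a median gene of 7.29 kb (a class with 27.9% hosts): chic, the profilin gene (rank 6124), and RhoGAP71E (rank 6673, replicate 2 rank 5246, replicate 3 rank 9287). Outside this list, sn, the fascin gene (rank 468), and Unc-115a (rank 1017) held stronger members. These genes outside the lists were named after their values were seen.

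Of the listed nuclear genes of mitochondrial function 0 of 11 were hosts, but those 11 had only 7.09 kb of qualifying sequence in all, and no listed cytosolic ribosomal protein gene had any. The definition therefore hardly reaches the listed genes. Outside the list, genes of mitochondrial proteins did hold members: besides qless (rank 1474), MCU, the mitochondrial calcium uniporter gene (rank 2714), and ND-MLRQ, a gene of a respiratory complex subunit (rank 4118), both named after their values were seen. CG1603 itself had 0 bp of qualifying sequence, and no member lay within 20 kb of it. The gene lists are described by counts and densities only.

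Promoter elements were rare at distal intronic summits. The DRE lay within 50 bp of the summit in 5 of 1742 members (0.287%), against 4.61% of all reproducible peaks and 8.54% of promoter peaks (odds ratio 0.0308, exact 95% interval 0.00994 to 0.0728, adjusted p = 2.02e-47 by Fisher's exact test). Motif 1 was present in 7 members (0.402%), against 2.54% of all reproducible peaks and 4.84% of promoter peaks (odds ratio 0.0794, exact 95% interval 0.0315 to 0.167, adjusted p = 6.17e-22). The BEAF-32 core CGATA was found in 11.1% of members and 34.3% of promoter peaks (odds ratio 0.240, exact 95% interval 0.203 to 0.283, adjusted p = 4.67e-82), and the E-box CAGCTG in 2.87% and 8.74% (odds ratio 0.308, exact 95% interval 0.224 to 0.417, adjusted p = 2.37e-17). Among the 2240 strongest peaks the DRE was in 1 of 319 members and in 109 of 1359 promoter peaks (8.02%).

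Against their own surroundings no difference was called for these elements. In windows of the same 101 bases shifted by 500 bp, 10.6% held CGATA (exact McNemar test against the left window, adjusted p = 0.658 over 18 motifs). For the DRE, 5 members had it at the summit only and 2 in the left window only (adjusted exact p = 0.583). For Motif 1, 7 members had it at the summit only and 1 in the left window only (adjusted exact p = 0.158). Its share was 0.402% at summits and 0.0574% in flank windows. Counts this small cannot show that the shares are equal. Distal intergenic summits held the DRE in 1.03% of cases (odds ratio 0.278, exact 95% interval 0.0730 to 0.927, adjusted p = 0.0694), though the odds ratio was 0.946 (adjusted p = 1) in the stronger 50% of the list, and Motif 1 in 0.342% (odds ratio 1.18, exact 95% interval 0.268 to 7.07, adjusted p = 1).

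The 5 members with a DRE were in Snap25, a SNARE gene of neurotransmitter release, CG42709, AGO3, an Argonaute gene of the piRNA pathway, Bicra and Pde11. The peak in Snap25 had a signal of 491 in replicate 2 and 385 in replicate 3 (rank 1081), and lay 59334 bp from the nearest TSS. The other 4 ranked 4457 to 8890. The sequence shown for CG42709 holds further matches to CGATA beside the DRE, and its intron is 140 bp long. Motif 1 members were in hth (signal 246 in replicate 2 and 226 in replicate 3), S, which encodes a cofactor for release of EGF receptor ligands (211 and 205), tna, Scp1, hwt, Nrg and kirre, at ranks 2708 to 8257. The Snap25 and hth peaks were above the members' upper quartile of signal in both replicates (241 in replicate 2 and 202 in replicate 3).

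Other motifs were more frequent at distal intronic summits than at promoter summits or in flank windows. In the main analysis no motif was called against distal intergenic summits. The Su(Hw) core GCATACTT was present in 26 members (1.49%), against 0.362% of promoter peaks (odds ratio 4.18, exact 95% interval 2.15 to 8.35, adjusted p = 3.48e-05 by Fisher's exact test) and 0.258% of flank windows (26 at the summit only and 3 in the left window only, exact McNemar test, adjusted p = 9.14e-05). Distal intergenic summits held it in 1.71% (odds ratio 0.872, exact 95% interval 0.442 to 1.78, adjusted p = 0.865). The strongest of the 26 was in intron 1 of ImpL2, the gene of a secreted insulin-binding protein, with a signal of 771 in replicate 2 and 523 in replicate 3. That in qless, a gene of coenzyme Q synthesis, had 364 and 370. The 26 had a median rank of 6329, in the weaker part of the list.

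The TATA box sequence TATAAA was present in 20.4% of members, 12.1% of promoter peaks (odds ratio 1.86, exact 95% interval 1.60 to 2.17, adjusted p = 3.31e-15), 19.5% of distal intergenic peaks and 11.7% of flank windows (exact McNemar test, adjusted p = 5.74e-12). The homeodomain core TAATTA was present in 8.84% of members, 5.94% of promoter peaks (odds ratio 1.53, exact 95% interval 1.24 to 1.90, adjusted p = 0.000390) and 6.66% of flank windows (adjusted p = 0.0397). Distal intergenic peaks held TAATTA in 7.74% of cases (odds ratio 1.16, adjusted p = 0.602 by Fisher's exact test). GATAAG, a site of GATA factors, was present in 6.83% of members and 4.45% of flank windows (adjusted p = 0.000584), but in 7.61% of promoter peaks (odds ratio 0.890, exact 95% interval 0.710 to 1.11, adjusted p = 0.539). Summits of members had a GC content of 33.7%, against 40.5% at promoter summits. At 500 bp to the left and right of members, where the flank windows lie, it was 41.5% and 41.2%. The part of GC content in the counts of these AT-rich letters and of the motifs below was not tested, against promoter peaks or flanks.

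Runs of 8 A, AAAAAAAA, were present in 4.13% of members, 2.44% of promoter peaks (odds ratio 1.72, exact 95% interval 1.25 to 2.36, adjusted p = 0.00252) and 8.24% of flank windows (adjusted p = 4.93e-08). Distal intergenic peaks held such runs in 3.19% of cases (odds ratio 1.31, adjusted p = 0.537 by Fisher's exact test). The sequence GAGAGAG, a site of the factor Trl, was in 2.32% of flank windows and 0.918% of summit windows (exact McNemar test, adjusted p = 0.00800). The CA repeat CACACACA was in 3.85% and 2.01% (exact McNemar test, adjusted p = 0.00693). The remaining motifs did not pass in any of the 3 comparisons. Over all reproducible windows these were the E-box CACGTG in 0.948%, the E-box bound by Twist, CACATG, in 4.33%, the Zelda site CAGGTAG in 0.368%, the AP-1 site TGACTCA in 0.982%, the Grainy head site AACCGGTT in 0.145%, the CTCF core GGTGGCGC in 0.736% and the Mef2 site in 2.24%. For the motifs above, the shares over all reproducible windows were 23.3% for CGATA, 5.96% for CAGCTG, 15.5% for TATAAA, 7.12% for TAATTA, 7.01% for GATAAG, 0.814% for GCATACTT, 3.08% for AAAAAAAA, 1.09% for GAGAGAG and 1.58% for CACACACA. A match is a run of letters and not a measured site.

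**Figure D4:**
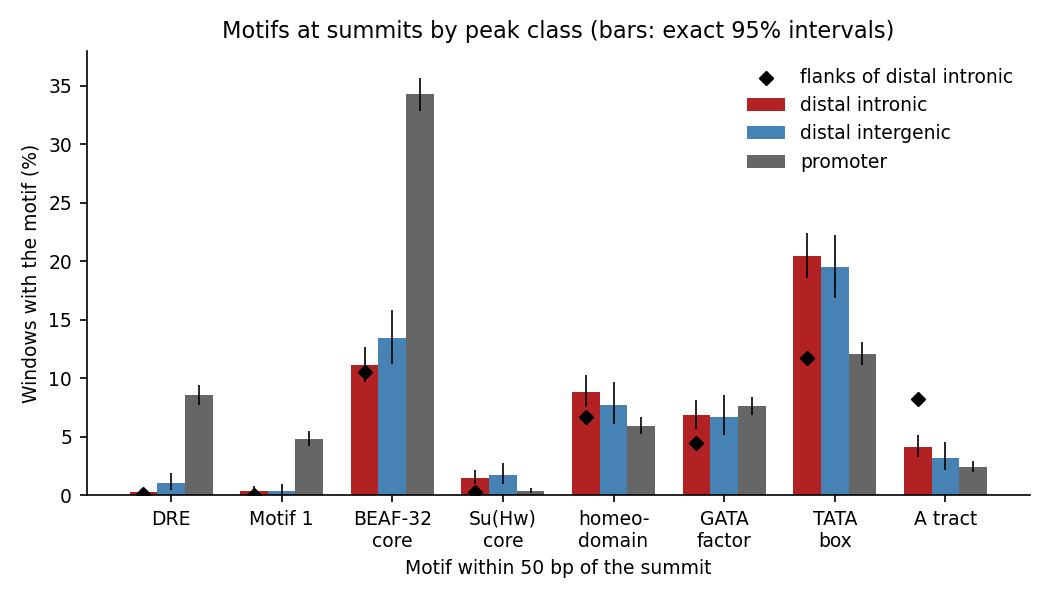
Share of windows (vertical axis, percent) that hold each of 8 motifs within 50 bp of the summit in distal intronic, distal intergenic and promoter peaks, with exact 95% intervals, and in the flank windows of distal intronic peaks (diamonds). The DRE is in 0.287% of distal intronic and 8.54% of promoter windows, and TATAAA in 20.4% and 12.1%.

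Distal intronic summits sat in a narrow dip of GC content between richer shoulders. The mean GC content of 51 bp windows was 33.7% ± 9.16 (SD over 1742 peaks) at the summit, 44.7% and 44.0% at 250 bp to the left and right, and 40.5% and 40.7% at 1000 bp, where all qualifying sequence has 40.0%. The dip was present with either replicate alone, at 33.4% for the 1816 summits of replicate 2 and 34.8% for the 1598 of replicate 3. The summit was poorer in GC than both sides at 250 bp in 1094 members (62.8%), in 63.4% of the replicate 2 summits and in 58.9% of those of replicate 3. Distal intergenic summits had a like profile, with 34.2% at the summit and the dip in 60.1% of peaks, and promoter summits had 40.5% with the dip in 30.3%.

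Strong and weak members shared this profile. The 435 strongest members had a mean of 33.5% GC at the summit and the 436 weakest 34.3%. Among the 15 strongest the median was 29.4%, from 19.6% in Tlk to 45.1% at one of the Hr4 peaks. In the sequences above, the window of Tlk had 26.7% GC over its 101 bases, while the DRE windows of Snap25 and CG42709 had 46.5% and 48.5%.

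**Figure D5:**
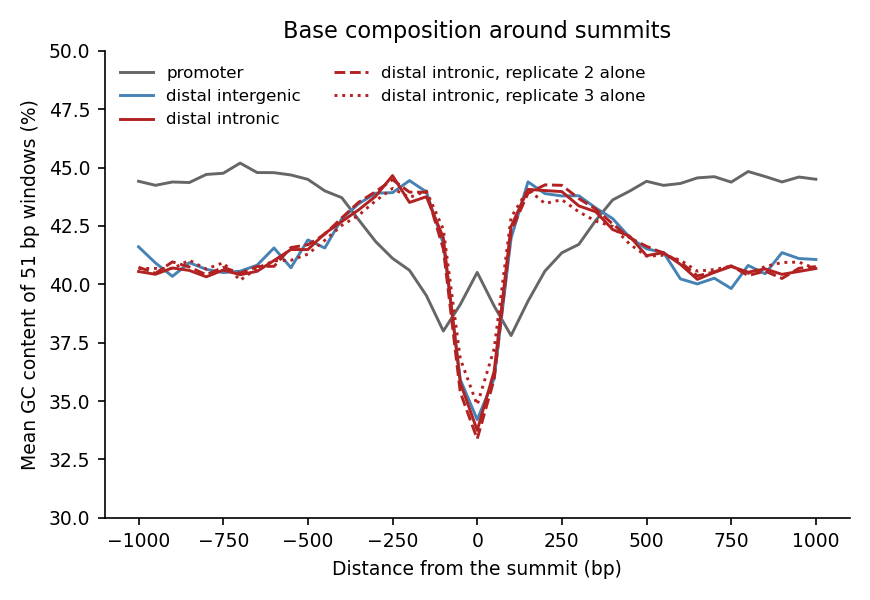
Mean GC content of 51 bp windows (vertical axis, percent, from 30 to 50) by distance from the summit (horizontal axis, bp) for promoter, distal intergenic and distal intronic peaks, the last also for each replicate's own summits. The distal intronic line falls to 33.7% at the summit from 44.7% at 250 bp to the left.

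Repeats were less frequent under members than over all qualifying sequence. The summit base was masked as a repeat in 18.5% of members, against 24.5% of all qualifying sequence, 12.0% of promoter peaks (odds ratio 1.66, exact 95% interval 1.42 to 1.94, adjusted p = 5.76e-10 by Fisher's exact test) and 16.6% of distal intergenic peaks (odds ratio 1.14, exact 95% interval 0.917 to 1.43, adjusted p = 0.507). Annotated transposable elements held 11 summits (0.631%), against 7.95% of the qualifying sequence. The aligner is not given, and whether reads can be placed in repeats as well as elsewhere was not tested. Repeat-rich 100 kb bins held 4.02% of members and 6.83% of distal intergenic peaks (odds ratio 0.571, exact 95% interval 0.394 to 0.829, adjusted p = 0.00929), the only one of 23 comparisons with distal intergenic peaks that passed 0.05. Against promoter peaks 11 of 23 passed.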

How the data were processed

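Per the labels, sonication of embryo chromatin gave fragments of 200 to 800 bp. The authors deposited 1 capped list of 30000 peaks for each of replicates 2 and 3 and for the pooled replicates, called against a control per the deposited description files, and a reproducible list. For aligner, peak caller and their versions: not given in the sources used here. Each deposited peak carries a signal value of unstated scale, the −log10 of a q value given by the authors, which was not used, and the summit's distance from the peak start. Lists hold no read counts, so no depth or counting interval is given.

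Genes came from Ensembl release 115 (BDGP 6.54) and sequence, masking and the other annotation from RefSeq release 6, both dm6. Shares carry exact binomial 95% intervals. Shares of peak classes were compared by Fisher's exact test (two-sided, conditional odds ratios), adjusted by Benjamini-Hochberg over 46 comparisons. Summit windows were compared with the left flank window by exact McNemar tests, adjusted over 18 motifs. Flank shares average the left and right windows. Repeat-rich bins had at least 30% masked bases. The Fisher's exact tests between classes were tried on simulated summits. For the McNemar test only the count of discordant pairs was checked, on a short made-up example. Software was SciPy 1.17.1, pandas 2.3.3 and NumPy 2.4.6 under Python 3.11.15.

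Members, gene lists, motifs and tests were chosen with earlier results of these data known. Genes named are the hosts of the 15 strongest members, the 10 hosts with most members, up to 4 hosts of each list by signal, hosts of printed sequences, the 3 summits nearest the distance limit on each side, and the 3 strongest members without a peak in 1 replicate, with the exceptions stated. Of 13 lists, 9 names found no match in the annotation and were left out. Alternatives changed the distance, peak point, threshold, replicates, repeats, annotation, overlap, windows and peaks per gene.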

Additional observations from a re-analysis of the deposited data

Results flagged for a closer look

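Outside the reproducible list, the pooled list held 6519 further distal intronic peaks, which the comparisons above do not use. Of these, 3570 (54.8%) overlapped a peak of both replicates, a share not set against that of other pooled peaks below the threshold. The pooled peaks come from the same 2 replicates, so overlap with their lists is not independent support. The count is given as data outside the main measurement, in a series whose control was not analysed here. What these weaker peaks represent was not tested.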

How the results depend on the processing

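Of 83 values under 15 other settings, 68 were counted as unchanged. Tested results in this count did not reverse and kept their side of the threshold, whatever their size. Shares in it moved by no more than their interval, and gene counts stayed within 1.5 times. The DRE odds ratio against distal intergenic peaks, 0.278 in the main analysis, was so counted at 0.946 in the stronger 50% of the list. The DRE ratio of summit to flank was so counted at 1 with windows of 100 bp to either side. The distal intronic share of 19.4% was 25.8% at 1000 bp from every TSS, 11.2% at 5000 bp and 16.1% in the stronger 50% of the list by signal, and 17.8% to 20.3% with 1 replicate left out. Host genes, 724 in the main analysis, numbered 994 at 1000 bp, 446 at 5000 bp and 446 in the stronger 50%. The odds ratio for a peak in both replicates against promoter peaks was 1.54 at 5000 bp (adjusted exact p = 0.227) and 2.17 with 1 peak per gene or gap (adjusted exact p = 0.0803), but 8.29 in the stronger 50% (adjusted exact p = 0.000685). Since the reproducible list was made from these same replicates, these odds ratios are no independent check. With 1 peak per gene or gap, the odds ratio for the strongest 25% was 1.01 against promoter and 1.31 against distal intergenic peaks (adjusted exact p = 1 and 0.144). With all peaks and the strongest 50% in place of the strongest 25%, it was 1.11 against distal intergenic peaks (adjusted exact p = 0.485). The lower share of the DRE than at distal intergenic summits was called at 1000 bp (odds ratio 0.217, adjusted exact p = 0.00190), with the middle of the peak (0.270, adjusted exact p = 0.0265) and with windows of 100 bp to either side (0.280, adjusted exact p = 0.00852), but not in the stronger 50% of the list (0.946, adjusted exact p = 1) or with 1 replicate left out (0.246 and 0.444, adjusted exact p = 0.0790 and 0.385). The DRE ratio of summit to flank, with 0.5 added to each discordant count, was 2.20 and became 0.846 with flanks at 1000 bp. Against promoter peaks the DRE odds ratio stayed between 0.0191 and 0.0471 under all 11 settings tried for it. The causes of these shifts were not tested. No paired analysis was possible because the series has 1 group. Without a control list or read counts, and with the authors' q values not used, weak peaks were not told apart from background here.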

Other observations

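Members were spread along their introns, with 35.8% in the first part of equal length, 36.1% in the middle part and 28.1% in the last. Of the 1742, 59 lay in introns of more than 1 gene and 4 shared an interval with another peak of the list. Among 6-letter words chosen on members of odd rank, ATATTG was in 12.6% of summit windows and 7.12% of flank windows of members of even rank, AATATA in 18.1% and 11.1%, and TATTGA in 10.2% and 5.63%. These words hold at most 1 G or C. Members had 33.7% GC at the summit and 41.5% and 41.2% at 500 bp to the left and right. The part of GC content in these shares was not tested.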
